A study of Homo sapiens and Mus musculus with 56 samples.

Results

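The genes described here are the platelet-derived growth factor (PDGF) receptors PDGFRA and PDGFRB, the receptor KIT, and their ligands PDGFA, PDGFB, PDGFC, PDGFD and KITLG (stem cell factor). They were taken by symbol from the microarray tables of 5 glioblastoma lines. All 8 were found among the 18417 genes of the human arrays. On the mouse arrays, 7 of the 8 were found under the same symbol in mouse case among 19938 genes, and the eighth was taken as Kitl, the mouse name of stem cell factor. Each of the 8 rested on a single probe set on each platform.

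PDGF receptors and KIT are class III receptor tyrosine kinases: a dimeric ligand brings 2 receptor chains together, and the chains phosphorylate each other and recruit adaptors, PI3-kinase, phospholipase C and SRC family kinases. The receptor chain encoded by PDGFRA binds PDGF-A, PDGF-B and PDGF-C, whereas that of PDGFRB binds mainly PDGF-B and PDGF-D. PDGFRA marks oligodendrocyte progenitors and is a known driver in part of glioblastomas, PDGFRB marks pericytes and fibroblasts, and KIT marks mast cells and melanocytes.

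The 5 lines, U87M2, U118, SF295, DBM2 and U251M2, were given V-4084, a small molecule inhibitor of the MET kinase, or vehicle for 7 days. The human arrays hold 28 samples labelled as glioblastoma cells treated in vitro with V-4084 from a 0.01 M stock in DMSO or with DMSO alone; no final concentration is stated in the labels. The mouse arrays hold 28 samples of tumours that the same lines formed under the skin of the flank of nude mice, which lack mature T cells; the mice received V-4084 at 30 mg/kg or the carrier. Each group of a line and a treatment had 3 arrays, except both SF295 groups on the human arrays and, on the mouse arrays, the V-4084 group of U251M2 and the vehicle group of SF295, which had 2 each. A tumour of this kind holds human tumour cells and mouse host cells, and which species' RNA gave the signal of a mouse probe set was not tested. The words cells and culture, used below for the human arrays, follow the sample labels. The labels do not say that repeats came from separate cultures or animals, so the p-values below describe the spread between arrays.

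Levels are log2 intensities as deposited, in which 1 unit is a factor of 2, and a level is comparable between samples for 1 gene but not between genes. A gene was called when its p-value, adjusted with the Benjamini-Hochberg method over all genes of the comparison, was under 0.05 in limma. As a yardstick of dim signal, the 95th percentile of the olfactory receptor genes was 6.38 on the human arrays (341 genes) and 6.07 on the mouse arrays (1015 genes). Array medians ran from 6.63 to 6.87 on the human arrays and from 6.11 to 6.31 on the mouse arrays. Human V-4084 arrays DBM2 repeat 2, U251M2 repeat 1 and SF295 repeat 2 had a narrower range of values than the others (SD over genes 1.75, 1.90 and 1.90, against at least 2.03 on every vehicle array). The 3 human V-4084 arrays titled DBM2 carry SF295 in their source field; they were placed by their titles. Of 7 glial markers, VIM, CD44, NES and GFAP were above the dim level in the vehicle groups of all 5 lines on the human arrays, GFAP by little outside U251M2. PTPRZ1 was above it only in U251M2, and SOX2 and S100B were below it in U87M2 and U118.

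The promoter windows of the members that changed with V-4084 are shown first, as RefSeq gives them on GRCh38.p14. Windows of 300 bases around annotated starts were given for 6 of the 8 members, 10 windows in all. They were searched on both strands for 8 motifs. The site of FOXO factors was searched as its core letters TGTTTAC, and that of the immediate early factor AP-1 as TGANTCA. The EGR motif was spelled GCGNGGGCG, and the GC box, which SP1 binds, was spelled GGGCGG. The CCAAT box was searched by its own letters, and the TATA box in the form TATAAA. The motif of ETS factors was CCGGAAGT, and that of E-box factors such as MYC was CACGTG. Capitals mark matches, and GC box and EGR matches can overlap. PDGFRA has windows at chr4:54229043-54229342 and chr4:54233710-54234009 (both plus strand), PDGFRB at chr5:150155796-150156095, PDGFD at chr11:104164098-104164397 and PDGFA, among its 4 windows, at chr7:520177-520476 (all 3 minus strand).
PDGFRA, upstream window: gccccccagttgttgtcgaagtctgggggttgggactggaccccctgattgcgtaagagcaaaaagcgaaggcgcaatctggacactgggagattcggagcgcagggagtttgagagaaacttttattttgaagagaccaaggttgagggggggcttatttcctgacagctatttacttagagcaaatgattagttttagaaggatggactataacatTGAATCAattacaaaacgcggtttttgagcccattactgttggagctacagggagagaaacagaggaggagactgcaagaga
PDGFRA, downstream window: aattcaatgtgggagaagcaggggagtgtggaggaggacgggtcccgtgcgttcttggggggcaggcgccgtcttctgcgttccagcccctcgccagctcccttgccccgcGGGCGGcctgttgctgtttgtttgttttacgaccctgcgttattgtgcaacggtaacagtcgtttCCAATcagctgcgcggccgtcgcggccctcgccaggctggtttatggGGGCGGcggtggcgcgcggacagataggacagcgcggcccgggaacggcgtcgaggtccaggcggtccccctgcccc
PDGFRB: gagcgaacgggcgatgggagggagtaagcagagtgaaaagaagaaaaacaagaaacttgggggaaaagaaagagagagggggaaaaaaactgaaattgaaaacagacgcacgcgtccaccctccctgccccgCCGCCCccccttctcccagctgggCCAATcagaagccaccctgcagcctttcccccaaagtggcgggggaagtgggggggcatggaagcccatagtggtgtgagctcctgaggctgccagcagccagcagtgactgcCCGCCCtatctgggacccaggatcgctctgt
PDGFD: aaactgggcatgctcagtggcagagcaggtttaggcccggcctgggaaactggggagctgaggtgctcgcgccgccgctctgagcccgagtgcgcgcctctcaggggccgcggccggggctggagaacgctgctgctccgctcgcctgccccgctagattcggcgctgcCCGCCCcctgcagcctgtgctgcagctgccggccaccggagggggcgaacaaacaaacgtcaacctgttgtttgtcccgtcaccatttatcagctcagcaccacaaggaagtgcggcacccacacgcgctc
PDGFA: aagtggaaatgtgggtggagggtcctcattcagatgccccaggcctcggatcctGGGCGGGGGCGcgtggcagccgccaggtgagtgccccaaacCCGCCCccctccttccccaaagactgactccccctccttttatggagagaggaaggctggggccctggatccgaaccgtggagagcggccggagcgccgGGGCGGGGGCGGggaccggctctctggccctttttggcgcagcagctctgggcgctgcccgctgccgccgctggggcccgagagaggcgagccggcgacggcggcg
The upstream PDGFRA window holds 1 match to the AP-1 pattern, with the letters TGAATCA, and no other of the 8 motifs. N stood for any base in the search, so a match need not be a consensus site. The window had 47% GC, whereas the median over all 35116 windows was 58.7% GC. The downstream PDGFRA window and the PDGFRB window each hold 2 GC boxes and 1 CCAAT box. The PDGFD window holds 1 GC box. The PDGFA window shown holds 4 GC boxes and 2 EGR matches. Among the other PDGFA windows, that starting at base 519797 also holds 2 EGR matches. Those starting at 518280 and 520651 hold 0. Among all windows, 7.71% held the AP-1 letters, 45% a GC box, 34.6% a CCAAT box and 9.43% an EGR match. The FOXO core letters, present in 3.42% of all windows, were in none of the 10. A match is a description of letters and does not show that a factor binds.

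Without inhibitor, both PDGF receptors differed widely between the lines in culture, and in different orders. PDGFRA was brightest in U118, at least 18.2-fold brighter than in DBM2, and PDGFRB was brightest in U87M2 and 19.3-fold dimmer in U251M2. All 8 members differed between the 5 vehicle groups on the human arrays (limma F test), where 58.4% of all genes did. Of all genes, 31.3% were called between U87M2 and U118, 30% between U87M2 and SF295, 35% between U87M2 and DBM2, and 36.9% between U87M2 and U251M2. The share was 27.5% between U118 and SF295, 33.5% between U118 and DBM2, 32% between U118 and U251M2, 25.2% between SF295 and DBM2, 26.7% between SF295 and U251M2, and 30.9% between DBM2 and U251M2.

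PDGFRA vehicle levels were 10.55, 10.64 and 10.53 in U118, 9.08, 9.26 and 9.14 in U251M2, 8.63 and 8.95 in SF295, 6.32, 6.31 and 6.67 in U87M2, and 6.13, 6.04 and 6.07 in DBM2. Every DBM2 vehicle array and 2 of the 3 U87M2 vehicle arrays were below the dim level; where a whole group lay below it, the fold above was taken against the dim level and is a lower bound. The step between U118 and U251M2 was called (log2 difference 1.41, adjusted p = 3.8e-08), as was that between SF295 and U87M2 (U87M2 minus SF295 -2.36, adjusted p = 3.0e-11). The neighbours U251M2 and SF295 did not pass the test (adjusted p = 0.14), nor did U87M2 and DBM2 (adjusted p = 0.091). Over the 28 human arrays the genes whose levels were most like PDGFRA were GARNL3 (r = 0.972), COL14A1 (r = 0.962) and CAMK1D (r = 0.955). These arrays share 5 lines, so such a correlation describes differences between lines.

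PDGFRB vehicle levels were 11.50, 11.66 and 11.20 in U87M2, 11.39, 11.33 and 11.21 in U118, 9.32 and 9.51 in SF295, 9.09, 8.89 and 8.95 in DBM2, and 7.38, 7.05 and 7.12 in U251M2. It was above the dim level on all human arrays. The 2 brightest lines, U87M2 and U118, did not pass the test against each other (log2 difference 0.14, adjusted p = 0.48). The other 3 steps passed it, the smallest being that between SF295 and DBM2 (0.44, adjusted p = 0.023). ZNF385D (r = 0.988), XYLB (r = 0.978) and DDR2 (r = 0.964), a collagen receptor kinase, had the levels most like PDGFRB over the 28 arrays.

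KIT was dim in culture: every human array lay between 4.84 and 5.65, below the yardstick. Its vehicle means lay between 4.91 and 5.38, and 3 of the 10 pairs of lines were called.

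The ligands had their own orders. PDGFA, the ligand of the PDGFRA chain, was brightest in U251M2 (9.66, 9.61 and 9.60), followed by U118 (8.48, 8.85 and 8.61), DBM2 (8.10, 8.22 and 8.36), U87M2 (7.97, 7.94 and 7.80) and SF295 (7.38 and 7.84). The steps from U251M2 to U118 and from U118 to DBM2 were called (adjusted p = 6.1e-06 and 0.029); DBM2 against U87M2 and U87M2 against SF295 were not (0.10 and 0.20). NTN1 (r = 0.910), AMOTL2 (r = 0.907) and RNF220 (r = 0.907) followed PDGFA most closely. PDGFB, which binds both receptor chains, was also brightest in U251M2, at 7.61, 7.72 and 7.40, and its vehicle means in the other 4 lines lay between 6.60 and 7.02. The step from U251M2 to SF295, the next line, was called (0.56 in log2, adjusted p = 0.0023), and none of the 3 steps below it was.

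PDGFC was bright in every line, with vehicle means between 8.26 in SF295 and 9.92 in DBM2; 8 of the 10 pairs were called. PDGFD vehicle levels were 8.10 and 8.53 in SF295, 7.05, 6.82 and 7.11 in U251M2, 6.20, 6.12 and 6.10 in DBM2, 5.78, 5.52 and 5.73 in U118, and 4.98, 5.03 and 4.97 in U87M2. It was above the dim level in SF295 and U251M2 only, was at least 3.82-fold brighter in SF295 than in U87M2, and all 10 pairs of lines were called. EHF (r = 0.957), TPD52L1 (r = 0.954) and ALPK2 (r = 0.952) had the levels most like PDGFD. KITLG was brightest in U118 (8.96, 8.88 and 8.76) and dimmest in DBM2 (7.11, 6.83 and 7.15), a span of 3.58-fold; of its 4 steps only that between U87M2 and DBM2 was called (adjusted p = 0.034).

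**Figure D1:**
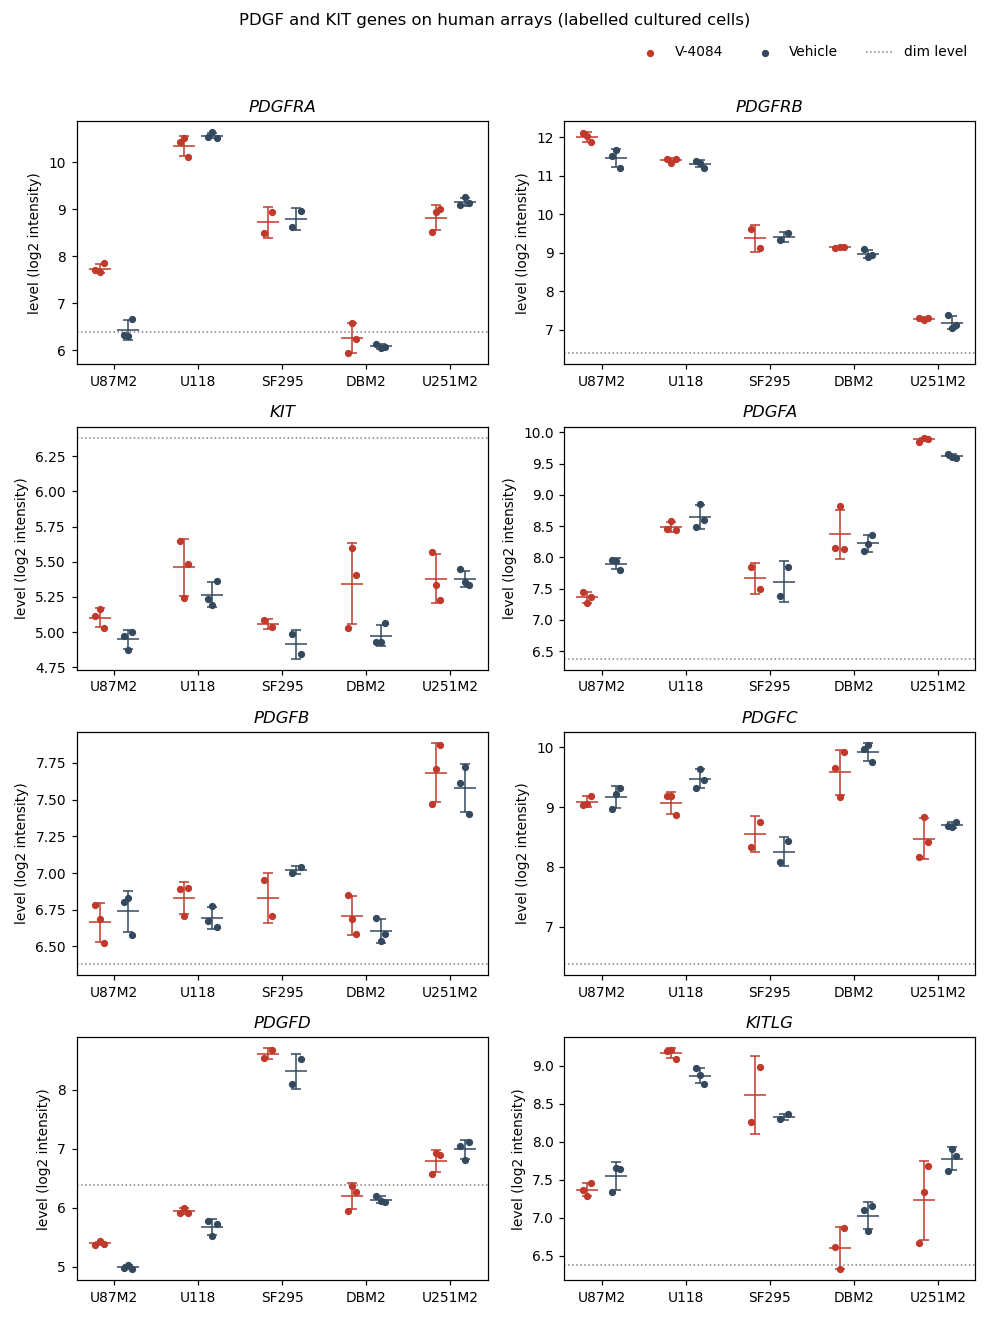
Levels of the 8 genes on the human arrays (y axis, log2 intensity) in each line (x axis), with V-4084 in red left of vehicle in dark blue. Points are arrays, the horizontal mark is the group mean, bars are ± 1 SD and the dotted line is the dim level of 6.38; PDGFRA in U87M2 shows the widest gap between treatments, and KIT lies below the dotted line throughout.

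V-4084 changed members of the family in U87M2, where the receptors were higher and PDGFA lower. PDGFRA was 2.47-fold and PDGFRB 1.47-fold higher with V-4084, PDGFD was higher at levels below the dim level, and PDGFA was 1.45-fold lower. In U87M2, 4 of the 8 members were called, whereas 15% of all genes were (5.37% higher and 9.62% lower). In U118, SF295, DBM2 and U251M2, 0 of the 8 were called, and the share of all genes called was 0.755%, 0%, 0% and 0%.

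PDGFRA in U87M2 had levels of 7.70, 7.66 and 7.85 with V-4084, against 6.32, 6.31 and 6.67 with vehicle. All 3 V-4084 arrays were higher than all 3 vehicle arrays and above the dim level. The log2 difference was 1.30 ± 0.16 (SE; adjusted p = 1.2e-06). With V-4084, PDGFRA in U87M2 still lay below its vehicle levels in U118, SF295 and U251M2. The other lines gave log2 differences of -0.22 in U118, -0.07 in SF295, 0.17 in DBM2 and -0.34 in U251M2, and none was called. In U251M2 the lowest of the 3 V-4084 arrays, 8.52, was the narrow-range array; the difference was -0.18 without the 3 narrow-range arrays.

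PDGFRB in U87M2 had levels of 12.10, 12.04 and 11.87 with V-4084, against 11.50, 11.66 and 11.20 with vehicle. The groups did not overlap. The log2 difference was 0.55 ± 0.13 (SE; adjusted p = 0.0030), in the line where PDGFRB was already brightest. The other lines gave -0.04 to 0.16 for PDGFRB, with no call.

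PDGFA in U87M2 had levels of 7.45, 7.27 and 7.37 with V-4084, against 7.97, 7.94 and 7.80 with vehicle. All V-4084 arrays were lower than all vehicle arrays. The log2 difference was -0.54 ± 0.15 (SE; adjusted p = 0.013). The call was lost without U87M2 vehicle repeat 1 (-0.51, adjusted p = 0.052), without U87M2 V-4084 repeat 2 (-0.49, adjusted p = 0.066) and under quantile normalization (-0.42, adjusted p = 0.11). In U251M2, the line with the brightest PDGFA, the V-4084 levels were 9.85, 9.91 and 9.90, against vehicle levels of 9.66, 9.61 and 9.60. There every V-4084 array was higher than every vehicle array, as for 6.27% of all genes, but the difference of 0.26 ± 0.15 was not called (adjusted p = 0.72).

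PDGFD in U87M2 had levels of 5.37, 5.43 and 5.39 with V-4084, against 4.98, 5.03 and 4.97 with vehicle. The groups did not overlap, and all 6 arrays were below the dim level. The log2 difference was 0.40 ± 0.13 (SE; adjusted p = 0.028). The call was lost under quantile normalization (0.31, adjusted p = 0.11) and when any 1 of the 6 U87M2 arrays was left out (0.39 to 0.42, adjusted p = 0.051 to 0.095). In SF295, where PDGFD was bright, levels were 8.55 and 8.68 with V-4084, against 8.10 and 8.53 with vehicle, and the difference of 0.30 ± 0.15 was not called (adjusted p = 0.59).

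The remaining ligands and KIT were not called in U87M2. PDGFB had a log2 difference of -0.07 ± 0.12, PDGFC of -0.08 ± 0.17, KITLG of -0.18 ± 0.19 and KIT of 0.16 ± 0.13 (SE). In that line 4 members were higher and 1 lower on all V-4084 arrays than on all vehicle arrays; among all genes the shares were 18% and 21.6%. The fourth higher member was KIT, at 5.12, 5.17 and 5.03 with V-4084 and 4.98, 4.87 and 5.00 with vehicle, all below the dim level.

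In the other lines the largest differences among members were in KITLG and PDGFC. KITLG in U251M2 had levels of 6.67, 7.34 and 7.68 with V-4084, against 7.62, 7.90 and 7.81 with vehicle. The log2 difference of -0.55 ± 0.19 was not called (adjusted p = 0.72), and it was -0.26 without the narrow-range arrays, 1 of which held the level of 6.67. KITLG in DBM2 had levels of 6.62, 6.33 and 6.87 with V-4084, against 7.11, 6.83 and 7.15 with vehicle (-0.42 ± 0.19, adjusted p = 0.16). Without DBM2 V-4084 repeat 3 it was called (-0.56, adjusted p = 0.0496). In U118, KITLG had levels of 9.19, 9.21 and 9.09 with V-4084, against 8.96, 8.88 and 8.76 with vehicle; every V-4084 array was higher, as for 13.7% of all genes, and the difference of 0.30 ± 0.19 was not called (adjusted p = 0.58). PDGFC in U118 had levels of 9.18, 9.18 and 8.86 with V-4084, against 9.32, 9.64 and 9.44 with vehicle (-0.40 ± 0.17, adjusted p = 0.43). It was called under array weights (-0.30, adjusted p = 0.0051), a setting that called 7825 genes in U118 against 139 without it.

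The difference between lines was tested directly. An F test of differences between the 5 V-4084 effects called PDGFRA (adjusted p = 9.5e-05) and none of the other 7, and 5.53% of all genes. It called 4 members without SF295 V-4084 repeat 1, and 2 without DBM2 V-4084 repeat 2 or repeat 3 or U251M2 V-4084 repeat 3. Set against the mean effect of the other 4 lines, a contrast chosen with earlier results known, the U87M2 effect was larger by 1.42 ± 0.18 for PDGFRA (adjusted p = 4.1e-06) and by 0.48 ± 0.14 for PDGFRB (adjusted p = 0.035), and lower by a log2 difference of -0.62 ± 0.17 for PDGFA (adjusted p = 0.019). PDGFD was not called in that contrast (0.30 ± 0.14, adjusted p = 0.26), and 8.78% of all genes were. The PDGFRB call in that contrast was lost without SF295 vehicle repeat 2 (0.45), U118 vehicle repeat 1 (0.47), U87M2 vehicle repeat 1 (0.50) or repeat 3 (0.35), or U87M2 V-4084 repeat 1 (0.43) or repeat 2 (0.46). The PDGFA call there was lost without U87M2 vehicle repeat 1 (-0.59) or V-4084 repeat 2 (-0.57) and under quantile normalization (-0.60).

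Averaged over the 5 lines, 0 of the 8 members were called, whereas 11.6% of all genes were. PDGFRB, KIT and PDGFD each averaged 0.17 ± 0.06 (SE; adjusted p = 0.057, 0.055 and 0.063), close to the threshold. PDGFRA also averaged 0.17 (± 0.07), with an adjusted p of 0.12. That average joins 1.30 in U87M2 with values from -0.34 in U251M2 to 0.17 in DBM2, so it does not describe a shared rise. PDGFRB passed the threshold without the 3 narrow-range arrays (0.22, adjusted p = 0.014). In that setting KIT fell to 0.13 (adjusted p = 0.10) and PDGFD to 0.16 (adjusted p = 0.064), and neither was called. KIT was below the dim level on every human array. With single arrays left out, at most 2 members were called, as without DBM2 V-4084 repeat 1 or repeat 3.

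**Figure D2:**
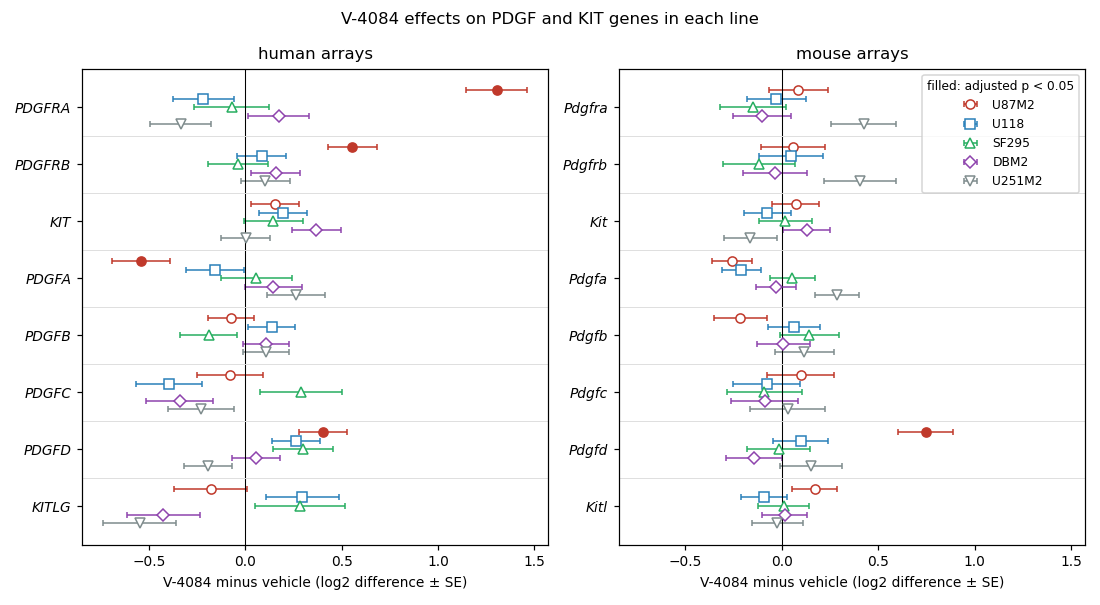
Log2 difference, V-4084 minus vehicle, of each gene (rows) in each line (symbols) on the human arrays (left) and the mouse arrays (right). Bars are ± 1 SE and filled symbols have an adjusted p under 0.05: PDGFRA, PDGFRB, PDGFA and PDGFD in U87M2 on the human arrays and Pdgfd in U87M2 tumours on the mouse arrays.

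Among genes that act around the PDGF receptors, 16 of the 50 measured in 4 lists were called in U87M2 cells, where 15% of all genes were (5.37% higher and 9.62% lower). Of 12 genes of PDGF processing and binding, 3 rose and 2 fell. A2M, a plasma protein that binds PDGF, rose by 1.53 ± 0.11 (adjusted p = 2.7e-10), although its vehicle mean of 6.09 was below the dim level. PLAT, the protease that activates PDGF-CC, rose by 0.46 ± 0.13 (adjusted p = 0.016), and PCSK5, a proprotein convertase, rose by 0.35 ± 0.10 (adjusted p = 0.018). PLAU, a protease that activates PDGF-DD, fell by 0.71 (SE 0.14, adjusted p = 0.00095), and NRP1, a co-receptor, fell by 0.38 (SE 0.12, adjusted p = 0.038). The list's median log2 difference was 0.14, against 0.02 over all genes.

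Of 19 measured receptor adaptors and effectors, 3 rose and 2 fell, with a median of -0.07; the count ran from 3 to 12 across 36 alternatives. The docking proteins GAB1 (0.83 ± 0.15, adjusted p = 0.00021) and GAB2 (0.60 ± 0.13, adjusted p = 0.0016) and PIK3R1 (0.48 ± 0.14, adjusted p = 0.019), a regulatory subunit of PI3-kinase, rose. The kinase SRC fell by 0.59 (SE 0.13, adjusted p = 0.0017) and PIK3CD, a catalytic subunit of PI3-kinase, fell by 0.38 (SE 0.13, adjusted p = 0.042). Of 11 measured genes of receptor turnover and feedback, 1 rose and 4 fell, with a median of -0.02. The ubiquitin ligase CBLB rose by 0.80 ± 0.15 (adjusted p = 0.00039), whereas its paralogue CBL fell by 0.58 (SE 0.11, adjusted p = 0.00064). DUSP6, an ERK phosphatase that ERK signalling itself induces, fell by 1.31 (SE 0.17, adjusted p = 2.3e-06). HGS, which sorts endocytosed receptors, and SOCS3, a feedback inhibitor, fell by 0.39 and 0.30 (adjusted p = 0.046 each), and the calls were lost in 19 and 21 of 36 alternatives. The calls of A2M, PLAU, GAB1, GAB2, SRC, CBL, CBLB and DUSP6 were kept in all 36. Those of PLAT and PIK3R1 were lost in 2, that of PCSK5 in 5, that of PIK3CD in 6 and that of NRP1 in 7, in most cases when a U87M2 array was left out.

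Of 8 class III relatives and their ligands, IL34, a ligand of the CSF1 receptor, rose by 0.37 ± 0.11 (adjusted p = 0.019), a count of 1 in 8 that is near the 15% of all genes called. The IL34 call was lost without U87M2 vehicle repeat 3 or V-4084 repeat 2 (adjusted p up to 0.12). The 9 measured neighbours of PDGFRA and KIT on chromosome 4 had a median difference of -0.18. Of these 1, FIP1L1, was called, also no more than the share over all genes, and it fell by 0.57 (SE 0.12, adjusted p = 0.0016). Among 11 measured markers of oligodendrocyte progenitors and proneural tumours, a class in which PDGFRA is often high, 0 were called and the median was 0.14.

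Fibroblast markers moved with the receptors in U87M2. Of 10, 8 rose, with DCN (1.97 ± 0.15, adjusted p = 3.7e-10), LUM (1.75 ± 0.20, adjusted p = 5.0e-07), COL3A1 (1.34 ± 0.16, adjusted p = 1.1e-06) and POSTN (1.33 ± 0.17, adjusted p = 3.3e-06) in the lead; COL1A1 (0.88), COL1A2 (0.60), THY1 (0.62) and FAP (0.46) were the others, and 6 to 8 were called across the alternatives. Their mean per array was 9.63 to 9.66 with V-4084, against 8.51 to 8.93 with vehicle, and 8 of the 10 were above the dim level with vehicle. The median over the list was 0.75. Of 11 pericyte and smooth muscle markers, RGS5 (0.96 ± 0.14), TAGLN (0.65 ± 0.17) and NOTCH3 (0.58 ± 0.14) rose and ABCC9 fell by 1.15 (SE 0.13); the count of 4 ran from 2 to 8 across the alternatives. The part of these genes in the receptor result was not tested. In bulk samples, more cells of a type and more RNA per cell cannot be told apart.

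Averaged over the 5 lines, 4 of the 50 genes around the receptors were called, a share below the 11.6% of all genes. A2M (0.41, adjusted p = 8.8e-05), GAB2 (0.21, adjusted p = 0.025) and CBLB (0.26, adjusted p = 0.020) rose. PTPN11, the phosphatase SHP2, fell by 0.34 (adjusted p = 0.043). Of the neighbours on chromosome 4, FIP1L1 fell by 0.24 (adjusted p = 0.011). The fibroblast markers DCN (0.65, adjusted p = 4.9e-06), COL3A1 (0.37, adjusted p = 0.0033) and LUM (0.46, adjusted p = 0.0036) rose. Of the pericyte markers, NOTCH3 rose by 0.23 (adjusted p = 0.030) and ABCC9 fell by 0.22 (adjusted p = 0.021). These averages weigh the 5 lines equally and include the U87M2 effects given above. In each of the other 4 lines, 0 genes of these lists were called, where at most 0.755% of all genes were. The fibroblast median was 0.15 in U118, 0.11 in SF295, -0.11 in DBM2 and 0.04 in U251M2, against 0.75 in U87M2.

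Of the same 4 lists, 7 of 52 genes were called in U87M2 tumours on the mouse arrays, where 3.72% of all genes were, and 5 of them were also called in U87M2 cells on the human arrays, each with the same sign. The 5 are thus 5 of 7 called on the mouse arrays and 5 of 16 called on the human arrays, where 15% of all genes were called. On the mouse arrays Gab1 rose by 0.56 ± 0.09 (adjusted p = 0.00063), Gab2 by 0.50 ± 0.11 (adjusted p = 0.0062) and Pik3r1 by 0.43 ± 0.12 (adjusted p = 0.042), and Plau fell by 0.69 (SE 0.17, adjusted p = 0.017) and Dusp6 by 0.51 (SE 0.14, adjusted p = 0.036). Pcsk6, a convertase, fell by 0.51 (SE 0.11, adjusted p = 0.0062), and Csf1r, a macrophage receptor, rose by 0.52 ± 0.13 (adjusted p = 0.021). The calls of Gab1 and Pcsk6 were kept in all 35 alternatives, whereas those of Gab2, Plau, Csf1r, Dusp6 and Pik3r1 were lost in 2, 4, 5, 5 and 10, mostly when a U87M2 array was left out. A2m had a log2 difference of 0.02 ± 0.10 in tumours, and A2M one of 1.53 ± 0.11 in cells. The 2 platforms were fitted apart, and the difference between them was not tested.

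**Figure D3:**
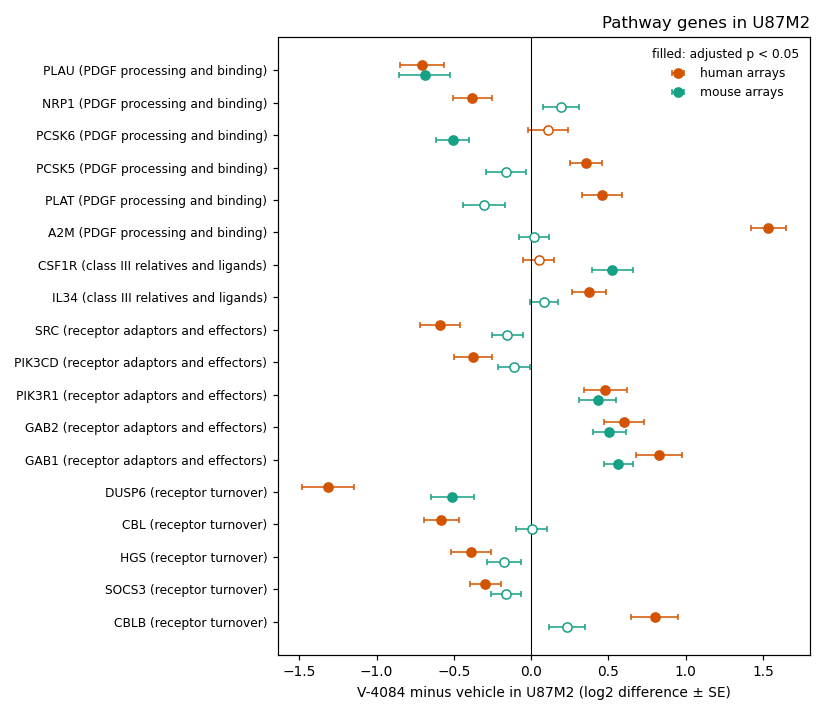
Log2 difference, V-4084 minus vehicle, in U87M2 for the 18 genes of PDGF processing, receptor adaptors, receptor turnover and class III relatives that were called on either platform, on human arrays (orange) and mouse arrays (green). Bars are ± 1 SE and filled symbols have an adjusted p under 0.05; PLAU, GAB1, GAB2, PIK3R1 and DUSP6 are filled on both.

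In the tumours, all 8 genes on the mouse arrays differed between the 5 vehicle groups (limma F test; 54.3% of all genes did). Pdgfra spanned 1.55-fold across the tumours, and 1 of its 10 pairs was called. Of all genes on the mouse arrays, 31% were called between U87M2 and U118 tumours, 36.2% between U87M2 and SF295, 9.35% between U87M2 and DBM2, and 5.56% between U87M2 and U251M2. The share was 7.01% between U118 and SF295, 26.7% between U118 and DBM2, 35.1% between U118 and U251M2, 31.8% between SF295 and DBM2, 40.1% between SF295 and U251M2, and 4.29% between DBM2 and U251M2. Pdgfrb was the member with the widest span, 3.27-fold. Its vehicle levels were 10.11, 10.48 and 9.80 in DBM2, 9.80, 9.61 and 9.70 in U251M2, 8.66 and 8.94 in SF295, 8.42, 9.11 and 8.47 in U87M2, and 8.30, 8.51 and 8.46 in U118. DBM2 and U251M2 tumours formed an upper pair that did not pass the test against each other (adjusted p = 0.18), and the step down to SF295 was called (0.90 in log2, adjusted p = 0.00081). U87M2 and U118, the brightest lines for human PDGFRB in culture, were lowest in mouse Pdgfrb, though the steps from SF295 to U87M2 and from U87M2 to U118 were not called (adjusted p = 0.57 and 0.25). The mean of 10 fibroblast markers in vehicle tumours was highest in DBM2 (9.57 to 9.86 per array), and that of 11 pericyte and smooth muscle markers was highest in U251M2 (8.02 to 8.16). Below DBM2 the fibroblast mean did not follow the order of Pdgfrb. It was 8.96 to 9.22 in U251M2, 8.68 to 9.30 in SF295, 8.47 to 9.49 in U87M2 and 9.07 to 9.22 in U118. The pericyte and smooth muscle mean did not follow the order of Pdgfrb: it was 7.63 to 7.94 in DBM2, 7.78 to 7.88 in SF295, 7.57 to 7.81 in U87M2 and 7.72 to 8.05 in U118. The part of these markers in the Pdgfrb levels was not tested.

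Kit lay above the dim level in the tumours of every line, with vehicle levels of 7.16, 6.90 and 7.44 in U118 at the top and 6.49 and 6.64 in SF295 at the bottom; 5 of the 10 pairs of lines were called, and no step between neighbours. Of the mast cell markers, Cpa3 and Mcpt4 were brightest in U118 tumours (vehicle means 7.38 and 6.79), while Ms4a2 and Fcer1a were below the dim level in all 5. Of 10 measured, 7 were above that level in U118 vehicle tumours, 5 in U87M2, 4 in DBM2, 4 in U251M2 and 3 in SF295. The part of these markers in the Kit levels was not tested. Kitl was also brightest in U118 (7.46, 7.60 and 7.34) and dimmest in DBM2 (6.47, 6.11 and 6.06), the lines in which human KITLG was brightest and dimmest in culture; 7 of its 10 pairs were called. Pdgfa was highest in DBM2 and U251M2 tumours (means 8.67 and 8.55), Pdgfb in SF295 (8.28), Pdgfc in U118 (8.29) and Pdgfd in SF295 (6.67); of the 10 pairs of lines, 6, 4, 4 and 3 were called for these ligands in that order. Pdgfb, which endothelial cells use to recruit pericytes, was lowest in DBM2 (7.52), where Pdgfrb was highest. The other lines did not keep an opposite order. Pdgfb was 8.16 in U251M2, the second line for Pdgfrb, and 7.85 in U118, the lowest for Pdgfrb.

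V-4084 changed 1 member in the tumours: Pdgfd in U87M2, which was 1.68-fold higher. Its levels were 6.75, 7.08 and 6.56 with V-4084, against 5.78, 6.36 and 6.01 with vehicle. All V-4084 arrays were higher than all vehicle arrays, as for 10.1% of all genes, and 2 of the 3 vehicle arrays were below the dim level. The log2 difference was 0.74 ± 0.14 (SE; adjusted p = 0.0031), where 3.72% of all genes were called (2.49% higher). It exceeded the mean effect of the other 4 lines by 0.72 ± 0.16 (adjusted p = 0.020), where 1.63% of all genes were called. The F test of differences between the 5 effects called 0 of the 8 members and 0.341% of all genes. Vehicle U87M2 tumours had the lowest Pdgfd mean of the 5 lines, 6.05, and with V-4084 the mean of 6.80 was above that of every other vehicle group.

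Other markers moved in the same U87M2 tumours. The mean of 8 skeletal muscle markers was 6.54 to 6.71 per array with V-4084, against 6.81 to 8.26 with vehicle, with no gene called. Of 10 macrophage markers 4 rose: C1qa (0.64, adjusted p = 0.0091), Csf1r (0.52), C1qb (0.47, adjusted p = 0.034) and Adgre1 (0.45, adjusted p = 0.018). Between 0 and 4 of them were called across the alternatives. Of 10 fibroblast markers Fbln1 rose by 0.65 ± 0.15 (adjusted p = 0.015), a call lost in 4 of 35 alternatives (adjusted p up to 0.13); 0 to 6 of the list were called across them. The mean ranges overlapped at 9.01 to 9.55 with V-4084 and 8.47 to 9.49 with vehicle. Pericyte and smooth muscle markers gave 0 calls of 11. The part of these markers in the Pdgfd result was not tested.

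Neither receptor was called in U87M2 tumours on the mouse arrays, with Pdgfra at 0.09 ± 0.15 and Pdgfrb at 0.06 ± 0.17. The 95% limits of the fit were -0.23 to 0.40 for Pdgfra and -0.29 to 0.41 for Pdgfrb. In U251M2 tumours, Pdgfra (0.42 ± 0.17), Pdgfrb (0.40 ± 0.19) and Pdgfa (0.29 ± 0.12) were higher on both V-4084 arrays than on all 3 vehicle arrays. For Pdgfrb the levels were 10.03 and 10.18 with V-4084, against 9.80, 9.61 and 9.70 with vehicle. None of the 3 was called (adjusted p = 0.31, 0.35 and 0.31), and 11.1% of all genes were higher on all V-4084 arrays there. The pericyte and smooth muscle mean in those tumours was 8.42 to 8.59 with V-4084, against 8.02 to 8.16 with vehicle, and Tagln of that list rose by 0.95 ± 0.18 (adjusted p = 0.045). That comparison called 8 genes in all, against 4 with dim genes left out and 3 with another variance prior. Array weights and the replicate block gave 2 each, and quantile normalization and a fit on that line alone gave 1 each. The Tagln call was not followed in these settings. With the mean of probe sets the comparison called 0, so the Tagln call was lost there. The part of these markers in the receptor and Pdgfa values was not tested. In U118, SF295, DBM2 and U251M2 tumours 0 of the 8 members were called (0.01%, 0.01%, 0% and 0.0401% of all genes), as on average over the lines (0.0702%).

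**Figure D4:**
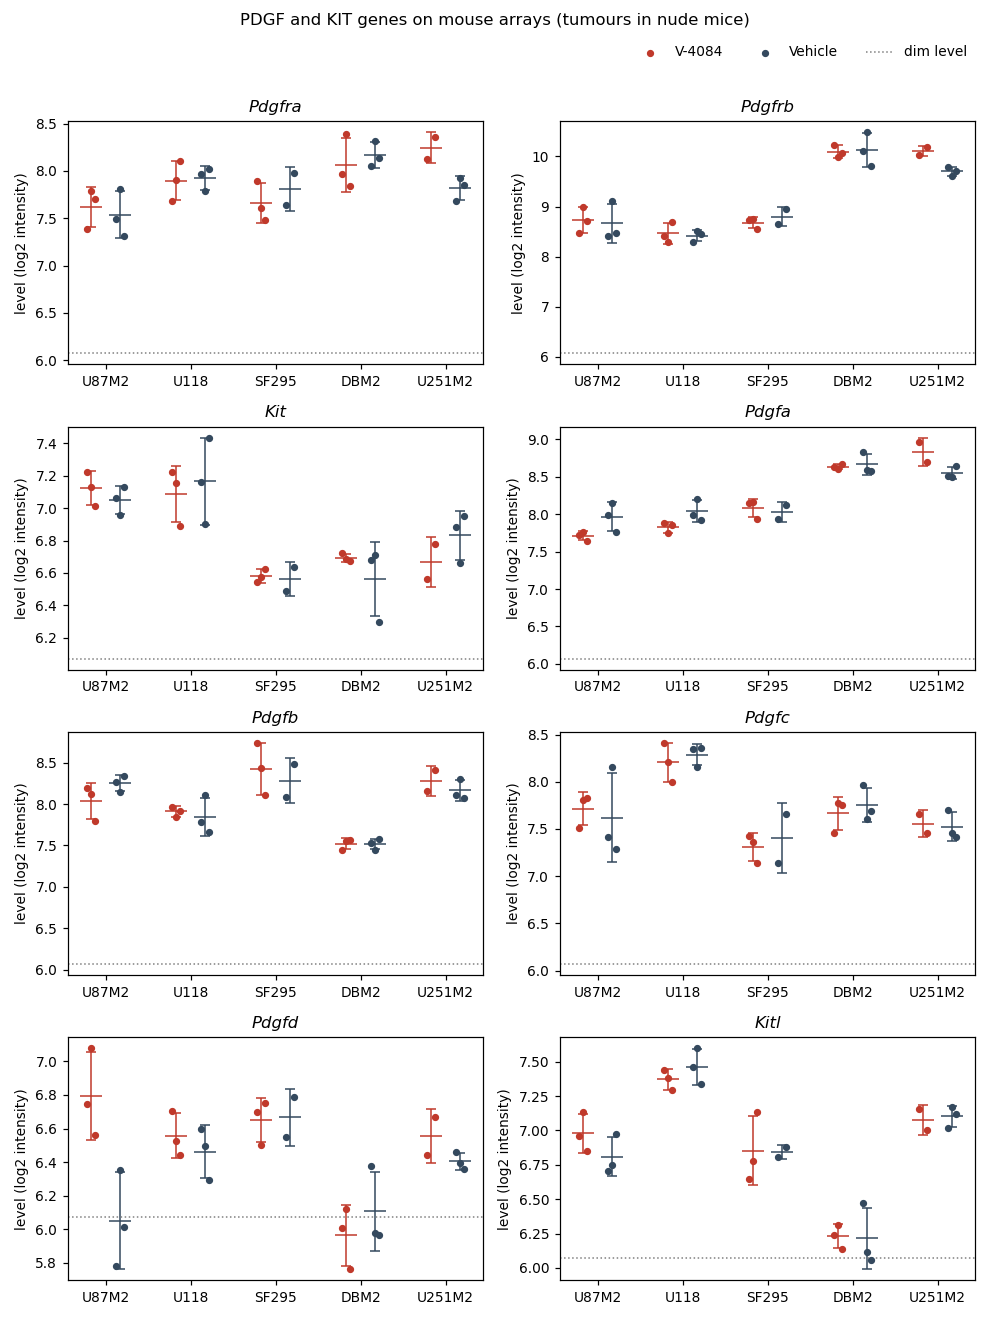
Levels of the 8 genes on the mouse arrays (y axis, log2 intensity) in tumours of each line (x axis), with V-4084 in red left of vehicle in dark blue. Points are arrays, the horizontal mark is the group mean, bars are ± 1 SD and the dotted line is the dim level of 6.07; Pdgfrb is high in DBM2 and U251M2 tumours, and Pdgfd in U87M2 shows a gap between treatments.

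Each human array was set beside the mouse array with its line, treatment and repeat number (27 pairs, deviations from group means). This was done because earlier results of these data showed muscle genes varying together in same-numbered arrays. In the human DBM2 V-4084 group, which includes a narrow-range array, the mean of 7 skeletal muscle markers ran from 6.43 to 7.43 per array. The mouse counterpart, with 8 markers, ran from 6.8 to 10.56. These ranges were the widest on each platform. Whether the human arrays hold mouse RNA was not tested. None of the 8 members passed the adjustment over 8 tests. The highest correlation was that of PDGFB with Pdgfb (r = 0.486, permutation p = 0.0168, adjusted p = 0.135; Spearman rho = 0.422, permutation p = 0.051, adjusted p = 0.409). With the 2 most distant pairs left out, r was 0.423. The other 7 had r between -0.02 and 0.27.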

How the data were processed

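Expression was measured on Affymetrix whole-transcript arrays for human (28) and mouse (28) samples. The deposited values are log2 intensities per probe set; per the submitters' processing notes they were made with RMA and Partek, in versions not given in the sources used here. No detection values or intensities before normalization were used here, so the number of arrays limits the precision. Probe sets were named from the platform annotation: of 33297 human probe sets 19460 named 1 gene, 1754 several and 12083 none, and of 35556 mouse probe sets 21789, 1621 and 12146. Genes with several probe sets were represented by the brightest, and probe sets naming several genes were left out. A probe set naming EBF1 and PDGFRB was among these.

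The 10 groups of each platform were fitted together with limma 3.58.1 in R 4.3.3 (18 residual degrees of freedom) after the procedure was checked on simulated data. Contrasts were V-4084 minus vehicle in each line, their mean, their differences and the pairs of vehicle groups, with Benjamini-Hochberg adjustment over all genes. Same-numbered arrays were compared with a two-sided permutation test (100000 resamples within groups). Groups follow the sample titles. All 8 members are named, and from each list of related genes up to 4 called genes with the smallest adjusted p and any on which a count of 5 or fewer turns; COL1A1, COL1A2, THY1, FAP and CD68 and the other marker genes were named after their values were seen. Genes like a member were the 3 with the highest r for members whose vehicle means spanned at least 2 log2 units. Members, lists and tests were chosen with earlier results of these data known. Alternatives changed the probe set, normalization, variance prior, array weights, dim-gene filter, replicate block, narrow-range arrays, DBM2 arrays, lines in the fit or single arrays.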

Additional observations from a re-analysis of the deposited data

Results flagged for a closer look

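The effect of V-4084 on PDGFRA differed between the lines on the human arrays (F test over the 5 effects, adjusted p = 9.465e-05 in limma). In U87M2 it was larger than the mean of the other 4 lines by 1.416 in log2, and all 3 V-4084 arrays of that line were higher than all 3 vehicle arrays. PDGFRB differed in the same way by 0.4765, and PDGFA in the opposite direction by -0.6174. The F test over the 5 effects called neither PDGFRB (adjusted p = 0.25) nor PDGFA (adjusted p = 0.096), and their calls against the other lines were lost in 6 and 3 of 35 alternatives. On the mouse arrays, the Pdgfd effect in U87M2 tumours exceeded the mean of the other 4 lines by 0.7235. The F test over the 5 effects did not call Pdgfd, and its contrast against the other lines was not followed under the alternatives. Each of these came from a test of the difference itself, with U87M2 set apart after earlier results were known.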

How the results depend on the processing

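The 17 counts of members called were recomputed under each alternative, which gave 599 values: 568 stayed within 1.5 times the count given and 31 moved. No effect changed sign in any setting among those with an unadjusted p under 0.05. PDGFRA and PDGFRB in U87M2 cells kept their calls in all 36 alternatives (log2 difference 1.21 to 1.42 and 0.43 to 0.66), as did Pdgfd in U87M2 tumours in all 35 (0.60 to 0.90). Quantile normalization gave 2 members called in U87M2 in place of 4, and 1 for the average on the human arrays in place of 0. Array weights, whose fit did not reach its convergence tolerance on 1 platform, gave 6 in U118 in place of 0, 3 for the average, 6 for the difference between the effects in place of 1, and 1 for that difference on the mouse arrays in place of 0. Leaving out dim genes, or the 3 narrow-range arrays, gave 1 for the average. Leaving out the narrow-range arrays, or the DBM2 arrays, gave 2 for the difference between the effects. The causes of these changes were not tested. With single arrays left out, the human counts ran from 2 to 4 in U87M2, from 0 to 2 in DBM2, from 0 to 2 for the average, from 1 to 4 for the difference between the effects and from 1 to 3 for U87M2 minus the other lines; on the mouse arrays 7 to 8 members differed between vehicle groups.

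The main fit did not pair V-4084 with vehicle arrays by repeat number. Same-numbered deviations correlated at -0.52 to 0.318 on the human arrays (3 of 14 over 0.1) and -0.349 to 0.297 on the mouse arrays (3 of 13). In U87M2 cells the values were 0.22, 0.01 and 0.32. With 2 or 3 arrays in a group, such correlations cannot show whether repeat numbers mark pairs. With the replicate block the counts of members called stayed at 4 in U87M2 cells and 1 in U87M2 tumours. It moved the count of all genes called from 14 to 9 for the average and from 8 to 2 in U251M2 on the mouse arrays.

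Counts of all genes moved more. In U87M2 cells 2760 genes were called, against 6779 with array weights, 4816 without the narrow-range arrays and 4286 in a fit on that line alone; in U118 cells 139, against 7825, 608 and 350. For the average on the human arrays 2138 were called, against 1352 under quantile normalization. For the difference between the effects 1019 were called, against 4088 with array weights and 1888 without the narrow-range arrays; for U87M2 minus the others 1617, against 3473 and 3119. Array weights gave 54 in U251M2 cells in place of 0. In U87M2 tumours 741 were called, against 1224 with array weights; the difference between the effects on the mouse arrays had 68, against 138 under quantile normalization and 208 with array weights. Mouse counts of 14 or fewer moved between 0 and 9.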

Other observations

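MITF, the melanocyte and mast cell transcription factor that acts downstream of KIT, rose in U87M2 with V-4084 on both platforms, by 0.65 ± 0.13 in cells (MITF, SE, adjusted p = 0.00059 in limma) and by 0.51 ± 0.14 in tumours (Mitf, adjusted p = 0.030), while KIT and Kit were not called on either. In U87M2 vehicle cells the MITF mean was below the dim level, as were all 5 measured melanocyte markers. Among endothelial markers in U87M2 cells, EMCN rose by 1.07 ± 0.15 (adjusted p = 7.8e-06), and PECAM1 and TEK fell by 0.87 and 0.48. CD68, a macrophage marker, fell by 0.78 in U87M2 cells (SE 0.11, adjusted p = 1.5e-05). It was the only 1 of 9 measured macrophage markers called there, where 15% of all genes were. The median over that list was 0.09, and 3 of the 9 were above the dim level with vehicle. In U87M2 tumours Tek rose by 0.43 ± 0.11 (adjusted p = 0.032) and Cldn5, a tight junction protein of vessels, fell by 1.05 (SE 0.15, adjusted p = 8.8e-05). The hyaluronan receptor CD44 fell by 0.87 in U87M2 cells (SE 0.13, adjusted p = 1.7e-05). Nes, an intermediate filament gene of progenitors and new vessels, fell by 0.84 in U87M2 tumours (SE 0.20, adjusted p = 0.017). Averaged over the 5 lines in culture, EMCN rose by 0.33 (adjusted p = 0.0038) and MITF by 0.21 (adjusted p = 0.023), and CD44 fell by 0.20 (adjusted p = 0.034). In each line but U87M2, 0 endothelial, melanocyte or glial markers were called on the human arrays, where at most 0.755% of all genes were. Across the alternatives in U87M2 tumours, 0 or 1 of the melanocyte markers and 0 or 1 of the glial markers were called.

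LNX1, a neighbour of PDGFRA on chromosome 4, had vehicle means of 8.08 in U118, 7.23 in SF295, 6.91 in U87M2, 5.93 in U251M2 and 5.90 in DBM2 on the human arrays. U118 was the brightest line for both genes. LNX1 was below the dim level in DBM2 and in U251M2, the line second for PDGFRA, so these 2 lines have no order for LNX1.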
